A study of Mus musculus with 11 samples.

Results

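ATAC-seq, in which a transposase cuts and tags open DNA, gave 1 peak list each for tissue-resident alveolar macrophages of mice 15 days after tumour cells, 30 days after tumour cells, and without tumour. The regions described here held a peak in all 3 lists and lay more than 1000 bp from both ends of every RefSeq gene of mm10, the mouse genome build of the lists. Peaks of the 3 lists that shared at least 1 bp were joined, which gave 16069 regions. Of these, 3057 held peaks of all 3 lists, and 685 of the 3057 (22.4%) met the distance rule. They are called shared distal regions below. They were chosen by the peak calls themselves, so their presence in every list, and their distance from gene ends, are not results.

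All groups were C57BL/6 mice and the cells were sorted from lung. The day 15 group (4 samples) and the day 30 group (3 samples) had received KP or KP-GFP tumour cells, grown in culture, through a tail vein, and the labels do not say which of the 2 lines each sample had. The tumours were therefore seeded from the blood and did not arise in the lung. The naive group (4 samples) carried no tumour. Each group had 1 list, so no value has a replicate error, and no test between groups was possible. The 95% Wilson intervals given with shares reflect only how many regions were counted.

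Open chromatin away from genes' ends is where enhancers are usually found. Enhancers bind transcription factors and act on promoters that can lie far off, and in macrophages many are set up by PU.1 and other lineage factors together with signal-driven factors such as activator protein 1. Promoters lie at transcription start sites, and those of widely expressed genes are often rich in G, C and CpG. A gene can have several start sites, and an annotated gene end marks only the outermost, so a promoter can also lie well inside a gene. Insulator sites bound by CTCF are a further kind of open region found at a distance from genes.

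One group of shared distal regions lay at such inner start sites. RefSeq start windows of 300 bp, reaching from 250 bases before to 50 bases after a start, were available for 27025 of the 49976 genes and for the chromosomes of 659 of the 685 regions. Of these 659 regions, 141 overlapped a start window (21.4%, 95% interval 18.4 to 24.7). The 6 windows below belong to leading shared distal regions and to the region at Rfx5, a gene of MHC class II presentation. They are shown because each holds letters of at least 1 of the motifs marked. The window at Hint3, another leading region, held none of them and is not shown. The sequences are from RefSeq on GRCm38.p6, the build of mm10, and are written 5′ to 3′ on the strand of the gene, so that the start is base 251. Capitals mark GGGCGGG, bound by KLF and SP factors, GGAAGT, the core bound by ETS factors, TGANTCA, bound by activator protein 1, and CGCATGCG, bound by NRF1, each read on both strands. None of the 6 windows held CGCATGCG.

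Ddx50, chr10:62651169-62651468, minus strand: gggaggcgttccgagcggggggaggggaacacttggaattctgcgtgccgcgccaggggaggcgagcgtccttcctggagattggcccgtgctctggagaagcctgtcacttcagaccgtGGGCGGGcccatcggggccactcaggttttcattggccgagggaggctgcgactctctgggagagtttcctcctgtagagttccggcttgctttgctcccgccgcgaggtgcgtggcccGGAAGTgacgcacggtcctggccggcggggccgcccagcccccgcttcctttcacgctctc
Add3, chr19:53142506-53142805, plus strand: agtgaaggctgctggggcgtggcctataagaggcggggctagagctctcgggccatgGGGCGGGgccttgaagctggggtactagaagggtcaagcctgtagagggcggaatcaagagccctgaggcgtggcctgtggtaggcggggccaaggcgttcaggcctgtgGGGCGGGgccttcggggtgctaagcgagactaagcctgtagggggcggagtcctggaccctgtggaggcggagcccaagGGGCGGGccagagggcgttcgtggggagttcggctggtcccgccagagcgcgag
Fbxl19, chr7:127746028-127746327, plus strand: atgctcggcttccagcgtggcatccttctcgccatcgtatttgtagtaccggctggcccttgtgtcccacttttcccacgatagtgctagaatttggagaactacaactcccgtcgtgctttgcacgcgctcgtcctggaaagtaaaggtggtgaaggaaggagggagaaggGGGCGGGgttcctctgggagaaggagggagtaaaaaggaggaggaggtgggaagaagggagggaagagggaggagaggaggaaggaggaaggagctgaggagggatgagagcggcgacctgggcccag
Ibtk, chr9:85749285-85749584, minus strand: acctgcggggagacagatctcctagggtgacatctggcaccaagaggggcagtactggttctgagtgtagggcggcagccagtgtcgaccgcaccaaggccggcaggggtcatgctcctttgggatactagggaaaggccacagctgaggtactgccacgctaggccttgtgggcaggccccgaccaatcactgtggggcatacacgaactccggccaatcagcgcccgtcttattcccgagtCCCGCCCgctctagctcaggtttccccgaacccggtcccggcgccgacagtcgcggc
Gm33989, chr7:39552579-39552878, plus strand: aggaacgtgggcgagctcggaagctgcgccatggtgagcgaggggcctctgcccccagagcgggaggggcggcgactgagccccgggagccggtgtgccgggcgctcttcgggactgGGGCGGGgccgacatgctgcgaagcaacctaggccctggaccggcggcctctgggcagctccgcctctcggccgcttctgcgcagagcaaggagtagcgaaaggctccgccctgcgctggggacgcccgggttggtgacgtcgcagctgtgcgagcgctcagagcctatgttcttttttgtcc
Rfx5, chr3:94953858-94954157, plus strand: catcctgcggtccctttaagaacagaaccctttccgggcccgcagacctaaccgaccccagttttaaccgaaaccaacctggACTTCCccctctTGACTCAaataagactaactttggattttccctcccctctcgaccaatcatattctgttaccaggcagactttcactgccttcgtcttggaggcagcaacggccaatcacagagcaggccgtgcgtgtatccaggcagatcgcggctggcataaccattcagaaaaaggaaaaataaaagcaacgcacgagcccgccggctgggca

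The window of Add3, which encodes an adducin of the membrane skeleton, held GGGCGGG 3 times, the nearest beginning 4 bases before the start. In the Ddx50 window, that of a DEAD-box RNA helicase, GGAAGT began 11 bases and GGGCGGG 130 bases before the start. Fbxl19 encodes an F-box protein that binds CpG-rich DNA, and Ibtk an inhibitor of Bruton tyrosine kinase. Their windows and that of the gene model Gm33989 each held GGGCGGG once, on the opposite strand in Ibtk. Rfx5, a subunit of the factor that binds MHC class II promoters, had no GGGCGGG in its window. It had TGACTCA beginning 156 bases before the start, and GGAAGT on the opposite strand. A match of letters is not a bound site.

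The strength of a peak was described by its summit pileup, the number of tags, each extended to 200 bp, that lie over the summit. In the 685 regions the summit pileup had a median of 25 tags at day 15 (quartiles 20 to 31, range 11 to 170), 16 tags at day 30 (14 to 19, range 9 to 95) and 25 tags in naive cells (19 to 31, range 6 to 122). The lowest pileup of any peak was 9 tags in the day 15 list, 9 tags in the day 30 list and 6 tags in the naive list. The day 30 values of these regions were thus the ones closest to the weakest peaks of their own list. Their median percentile by −log10 p among all peaks of a list was 72.2 at day 15, 42.9 at day 30 and 80.5 in naive cells. The 2372 regions in all lists at gene ends were stronger in each, at medians of 29 tags at day 15, 17 tags at day 30 and 28 tags in naive cells. The 2952 distal regions with peaks in the day 15 and naive lists only had medians of 18 tags at day 15 and 16 tags in naive cells, and the 3176 distal regions of the naive list alone a median of 12 tags. Regions missing from a list could not have a high value there, so this order partly follows from the way the sets were formed.

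**Figure D1:**
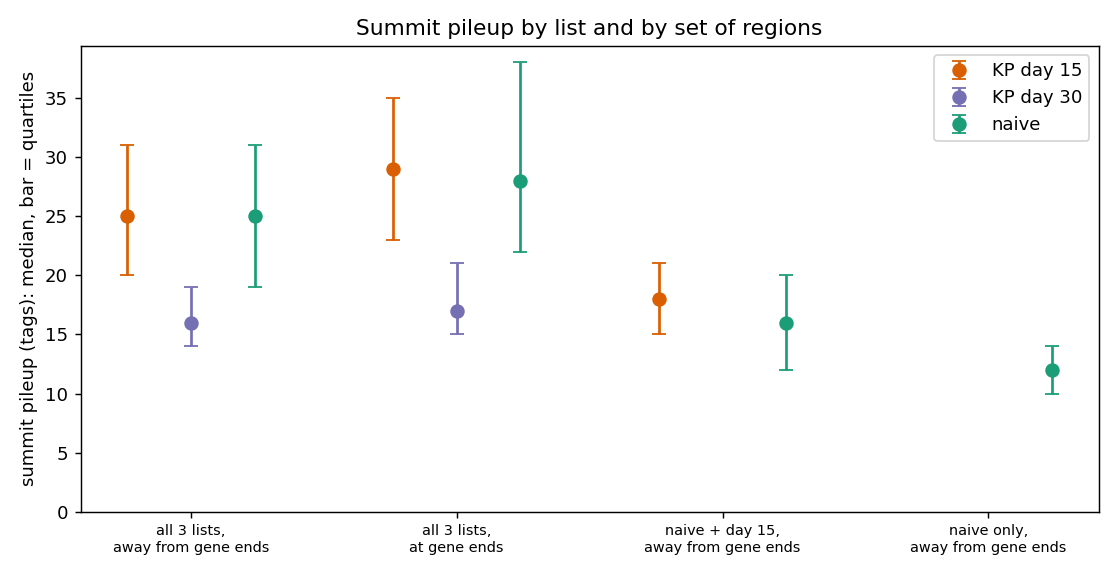
Summit pileup in tags (y axis) for 4 sets of regions (x axis), with the median as a point and the quartiles as a bar, for KP day 15, KP day 30 and naive. The 685 shared distal regions on the left have medians of 25, 16 and 25 tags, below the 29, 17 and 28 tags of regions at gene ends and above the sets missing from 1 or both tumour lists.

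The tumour lists were the deeper ones. The genome-wide background was 93.5 tags per 10 kb at day 15, 82.2 at day 30 and 39.2 in naive cells, or 2.38 and 2.1 times the naive depth. Equal tags therefore did not mean equal enrichment. The tags above the genome-wide background, in multiples of that background, are called excess per depth here. The median ratio of excess per depth in the shared distal regions was 0.42 for day 15 over naive (95% interval of the median 0.401 to 0.418, quartiles 0.348 to 0.487). It was 0.30 for day 30 over naive (0.287 to 0.305, quartiles 0.235 to 0.374) and 0.72 for day 30 over day 15 (0.695 to 0.738). Over all regions with peaks in both lists, the same medians were 0.42 in 9335 regions, 0.28 in 3163 regions and 0.69 in 3093 regions. The lower ratios were thus a property of the whole lists. Whether the number of cells, the quality of the libraries or accessibility itself moved with them was not tested.

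Few shared distal regions stood above naive. The ratio was above 1 in 6 of 685 regions for day 15 over naive (0.876%), with a share of 0.439% over all regions with peaks in both lists. It was above 1 in 6 regions for day 30 over naive (0.876%, with 0.253% of all) and in 94 regions for day 30 over day 15 (13.7%, with 10.3% of all). In 676 regions both tumour lists were below naive, and in 3 both were above it. Without the depth correction the picture differed, since 343 regions had more tags at day 15 than in naive cells and 76 had more at day 30.

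Positions within a region were close between lists. The summit at day 15 lay a median of 34 bp from the naive summit, and within 100 bp of it in 530 regions (77.4%). The summit at day 30 lay a median of 57 bp from the naive summit, and within 100 bp in 478 regions (69.8%). Regions in all lists at gene ends had nearly the same medians, 35 bp at day 15 and 52 bp at day 30. Peaks were narrower at day 30, with a median width of 297 bp, against 431 bp at day 15 and 485 bp in naive cells. In 656 regions each list had exactly 1 peak.

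Genes held 493 of the 685 regions, 429 of them in a protein-coding gene and 64 in noncoding genes only, while 192 lay between genes. The share in gene bodies was 72.0% (95% interval 68.5 to 75.2), against 68.6% (66.9 to 70.2) in distal regions of day 15 and naive only and 66.4% (64.7 to 68.0) in those of naive alone. The first interval overlaps the second and not the third. These shares include regions at annotated starts, which all lay in gene bodies. There were 141 in the shared set, 279 in that of day 15 and naive only and 137 in that of naive alone. Without them the shared set had 64.7% in gene bodies, so its higher share was not seen apart from regions at starts. A protein-coding gene had an end within 50 kb of 541 regions (79.0%, 75.8 to 81.9), against 77.8% and 75.8% in the other sets. The 121 regions that lay 1 to 2 kb from a gene end made up 17.7% (15.0 to 20.7). This share was 11.6% (10.4 to 12.8) in distal regions of day 15 and naive only and 10.5% (9.47 to 11.6) in those of naive alone, and neither interval reached that of the shared regions. Another 144 lay 2 to 5 kb away, 128 lay 5 to 10 kb, 242 lay 10 to 50 kb and 50 lay farther. The X chromosome held 9.

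The 503 protein-coding genes nearest to these regions had peaks at their own ends about as often as all genes at day 30, and more often at day 15 and in naive cells. A peak within 1000 bp of an end was present at 195 of them at day 15 (38.8%, 34.6 to 43.1), 67 at day 30 (13.3%, 10.6 to 16.6) and 213 in naive cells (42.3%, 38.1 to 46.7). Over all 21883 protein-coding genes the shares were 29.6% at day 15, 12.8% at day 30 and 34.7% in naive cells. Genes nearest to distal regions of day 15 and naive only had 39.7%, 16.3% and 47.5%, in the same order. Those nearest to distal regions of naive alone had 39.2%, 17.5% and 46.7%. The raised shares were thus not particular to shared distal regions. Of the 503 genes, 467 had 1 shared distal region, 34 had 2 and 2 had 3. The 2 genes with 3 were Noct and Ccnl1. Noct encodes nocturnin, a phosphatase with a daily rhythm in many tissues. Its regions, 14059 to 41568 bp from an end of the gene, had 31, 23 and 20 tags at day 15, 16, 15 and 13 tags at day 30, and 26, 27 and 26 tags in naive cells, nearest first. Ccnl1 encodes cyclin L1, which takes part in splicing. Its region at chr3:65957965-65958790 lay at an inner start and had 32 tags at day 15, 23 tags at day 30 and 34 tags in naive cells, while the 2 others lay 12445 and 16190 bp from the gene.

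The 26 regions not looked up for a start all lay on chromosome 18. Annotated starts were more frequent in the shared distal regions than in the other distal sets. Against the 21.4% given above, 9.74% (8.71 to 10.9) of 2865 distal regions of day 15 and naive only overlapped a start window, and 4.47% (3.79 to 5.26) of 3065 distal regions of naive alone. At gene ends, 83.6% of 2285 regions in all lists did. Strength moved with this share, so regions of like naive pileup were compared. Pileup in the tumour lists, which also formed the sets, was not matched. The bands therefore cannot separate the share at starts from strength in those lists. At 11 to 15 naive tags, 18.3% (11.02 to 28.8) of shared distal regions were at a start, against 9.11% (7.501 to 11.02) of those of day 15 and naive only and 4.43% (3.49 to 5.61) of those of naive alone. At 16 to 20 tags the shares were 13.7% (8.74 to 20.9), 9.46% (7.63 to 11.7) and 6.06% (4.11 to 8.86), in the same order. At 21 to 25 tags they were 17.0% (11.8 to 23.9), 11.9% (9.19 to 15.3) and 4.88% (1.91 to 11.9). At 26 to 30 tags the shared regions had 20% (13.8 to 28.0), against 12.3% (8.26 to 17.9) in those of day 15 and naive only. At 31 to 40 tags they had 33.3% (25.5 to 42.2), against 14.6% (8.57 to 23.9). The direction was the same in all 5 bands, while the intervals of the shared regions and those of day 15 and naive overlapped in the 3 bands between 16 and 30 tags and met at 11.02% in the lowest band.

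**Figure D2:**
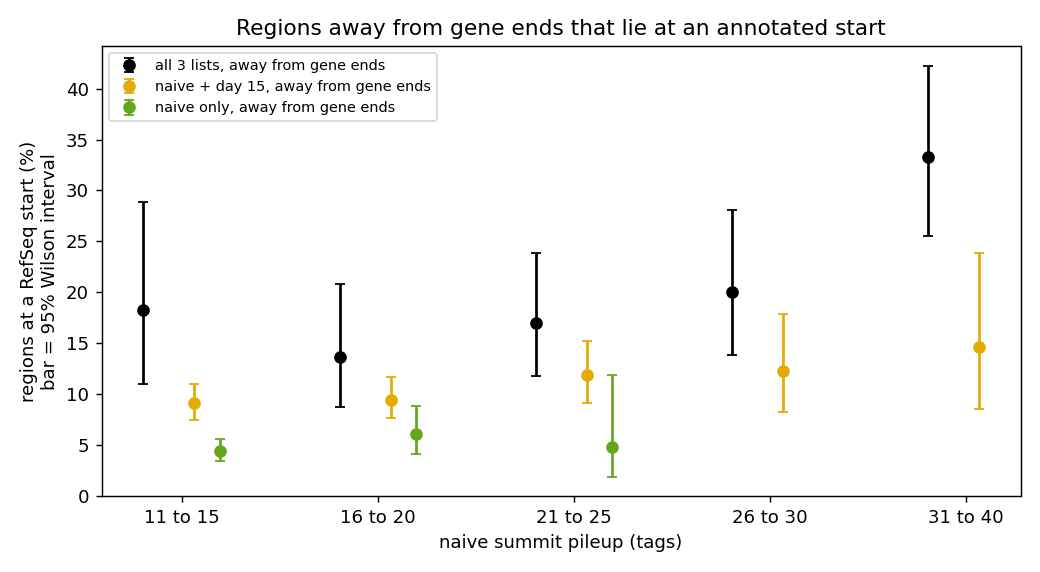
Share of distal regions that overlap a RefSeq start window (y axis, %, bars are 95% Wilson intervals) by naive summit pileup in tags (x axis), for regions in all 3 lists, in naive and day 15 only, and in naive only. The shared regions are the highest in each of the 5 bands, with 13.7% at 16 to 20 tags as their lowest share and 33.3% at 31 to 40 tags as their highest.

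The 141 regions lay at starts of 141 genes, 136 of them protein-coding. These starts lay a median of 5163 bp inside the outermost 5′ end of their gene (quartiles 2344 to 12794 bp), from 1120 bp to the 178872 bp of Sgms1, a sphingomyelin synthase gene. The summit lay within 200 bp of the start in 104 regions at day 15 (73.8%), 101 at day 30 (71.6%) and 107 in naive cells (75.9%). Its median position was 48 bp upstream of the start at day 15, 59 bp upstream at day 30 and 47 bp upstream in naive cells. The outermost 5′ end of the same gene was mostly without a peak, as it was for most genes. A peak within 1000 bp of it was present for 19 genes at day 15 (13.5%, 8.80 to 20.1), 10 at day 30 (7.09%, 3.90 to 12.6) and 22 in naive cells (15.6%, 10.5 to 22.5), and for 117 genes (83.0%, 75.9 to 88.3) there was none in any list. Over the 27024 genes with a start window, the same measure gave 22.2% at day 15, 9.8% at day 30 and 26.1% in naive cells. Of all start windows more than 1000 bp from every gene end, 4435 in number, 15.8% had a peak in any list.

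**Figure D3:**
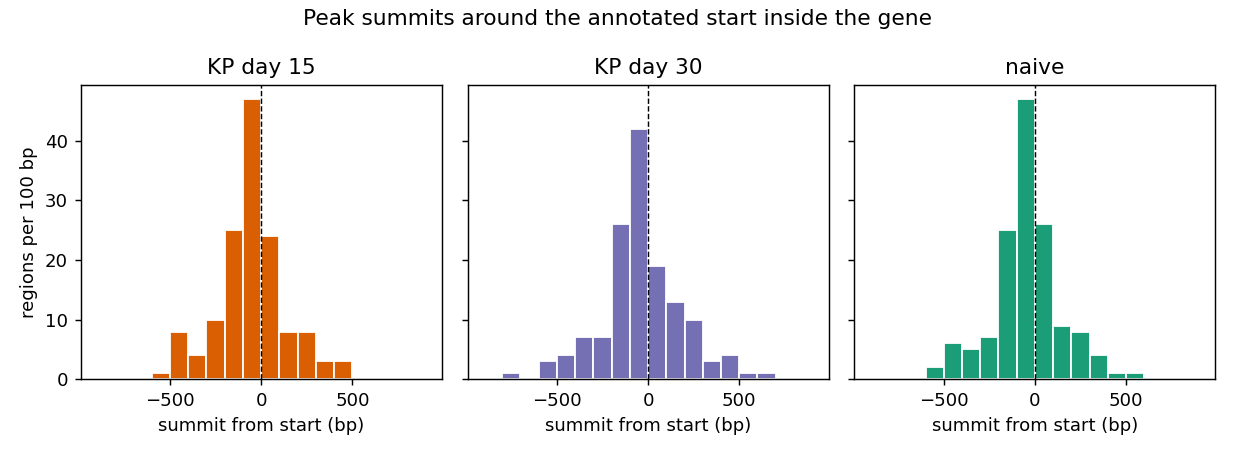
Number of regions per 100 bp (y axis) by distance of the peak summit from the inner start, in bp along the gene's strand (x axis), for the 141 regions at KP day 15, KP day 30 and naive. All 3 panels peak in the 100 bp just upstream of the start, with medians 48, 59 and 47 bp upstream.

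Of the 9 genes with peaks at the outer end in all lists, the inner start had fewer tags than the outer end in 7 at day 15, 8 at day 30 and 7 in naive cells. Mesd, a chaperone gene, went the other way at day 15 and in naive cells, with 32 tags at day 15, 15 tags at day 30 and 41 tags in naive cells inside, against 24, 18 and 30 tags at its outer end. Per1, a core component of the circadian clock, had 31 tags at day 15, 20 tags at day 30 and 28 tags in naive cells at the inner start. At its outer end the values were 36 tags at day 15, 23 tags at day 30 and 35 tags in naive cells. Sertad2, a transcriptional regulator gene, had 25 tags at day 15, 20 tags at day 30 and 20 tags in naive cells at a start 88811 bp inside it, against 47, 27 and 61 tags at its outer end. Tmpo, which encodes lamina-associated proteins, had weaker peaks inside, with 17 tags at day 15, 14 tags at day 30 and 17 tags in naive cells. The outer end of Tmpo had 29 tags at day 15, 30 tags at day 30 and 28 tags in naive cells. Prdm1 encodes Blimp-1, a repressor that works in plasma cells and in several myeloid cells. At its inner start, 69810 bp inside the gene, it had 24 tags at day 15, 19 tags at day 30 and 12 tags in naive cells, with a ratio to naive of excess per depth below 1 at both times. Its outer end had a peak in the naive list alone, of 10 tags.

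By class, the regions at inner starts had the highest naive values. Their medians were 26 tags at day 15, 17 tags at day 30 and 29 tags in naive cells, with median ratios to naive of 0.38 at day 15 and 0.28 at day 30. The 330 other regions in gene bodies had medians of 24 tags at day 15, 16 tags at day 30 and 23 tags in naive cells, with ratios of 0.42 and 0.30. The 192 regions between genes had 25 tags at day 15, 16 tags at day 30 and 25 tags in naive cells, with ratios of 0.41 and 0.30. The quartiles of the classes overlapped for every one of these values.

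Start windows at shared distal regions had the base composition of those at gene ends. Their median G and C content was 63.3% and their median observed over expected CpG was 0.82. The 1909 windows at regions in all lists at gene ends had 63.7% and 0.85, those at distal regions of day 15 and naive only had 59.7% and 0.73, and those at regions of naive alone 60.0% and 0.65. Inner start windows without a peak in any list had 50.0% and 0.26.

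The letters of 15 motifs, on both strands, were counted in the same windows. GGGCGGG was in 49.6% (41.5 to 57.8) of the 141 windows at shared distal regions, in 58.9% (56.7 to 61.1) of windows at regions in all lists at gene ends, and in 25.6% of all 32851 windows. CGCATGCG was in 6.38% (3.39 to 11.7), 5.45% (4.52 to 6.56) and 1.87%, in the same order, and CNAGNNGGC, part of the CTCF motif, in 31.9% (24.8 to 40), 34.4% (32.3 to 36.5) and 20.8%. All 3 were thus above their share of all windows in both kinds of region. These 3 strings are rich in G and C, and so were both kinds of window, with medians of 63.3% and 63.7% against 52.7% in all windows. The counts were not corrected for base composition, and its part in these shares was not tested. GGGCGGG and CNAGNNGGC were not particular to regions in all lists. Windows at distal regions of day 15 and naive only held GGGCGGG in 44.8% (39.1 to 50.7) and CNAGNNGGC in 32.6% (27.4 to 38.3). Those at regions of naive alone held them in 46.0% (37.9 to 54.3) and 26.3% (19.6 to 34.2). CGCATGCG was lower in these other distal sets, at 2.87% (1.46 to 5.56) and 4.38% (2.02 to 9.23), with intervals that overlapped that of the shared distal regions. TGANTCA was in 9.93% (6.01 to 15.98) of windows at shared distal regions, against 4.4% (3.57 to 5.42) of those at gene ends and 7.81% of all. GGAAGT was in 28.4% (21.6 to 36.3), 29.8% and 23.8%. The longer PU.1 letters GAGGAAGT, which contain GGAAGT, were in 2.84% (1.11 to 7.07), 3.56% and 3.20%. TTGCNNAA, bound by C/EBP factors, was in 10.6% (6.55 to 16.8), 8.43% and 10.8%, and CACGTG, an E-box, in 9.93% (6.01 to 15.98), 11.2% and 7.15%. GAAANNGAA, part of the interferon response element, was in 1.42% (0.39 to 5.02), 5.71% and 8.56%, and TGTGGTT, bound by RUNX factors, in 2.13% (0.73 to 6.07), 2.62% and 5.27%. GGGANTTCC, bound by NF-kB, was in 0 of the 141 windows (upper bound 2.65%), against 3.14% and 1.68%. In windows at distal regions of day 15 and naive only, TGANTCA was in 4.66% (2.74 to 7.81) and GAAANNGAA in 10.0% (7.04 to 14.1). At distal regions of naive alone they were in 5.84% (2.99 to 11.1) and 6.57% (3.49 to 12.0). Inner start windows without a peak in any list held TGANTCA in 8.86% (7.99 to 9.81) and GAAANNGAA in 8.67% (7.81 to 9.62). The windows at shared distal regions cover those at starts only, and the sequence of the other regions was not used here.

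**Figure D4:**
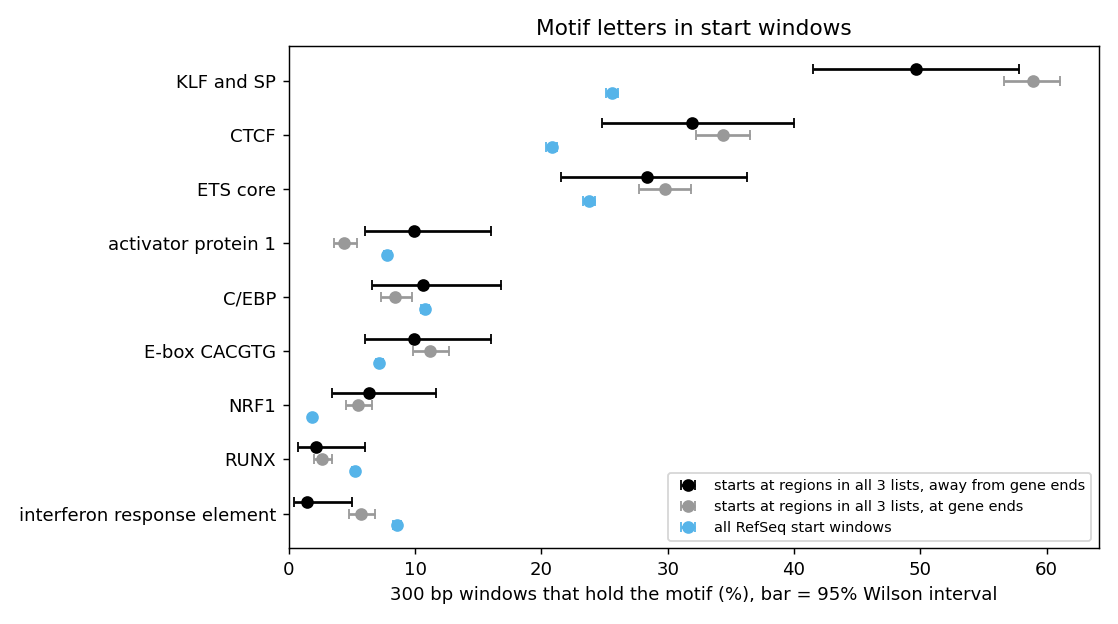
Share of 300 bp start windows that hold the letters of a motif (x axis, %, bars are 95% Wilson intervals) for 9 motifs (y axis), in windows at shared distal regions, at regions in all lists at gene ends, and in all RefSeq windows. GGGCGGG of KLF and SP is at 49.6% and 58.9% in the first 2 sets and at 25.6% in all windows.

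The leading regions were taken by their mean rank by −log10 p over the 3 lists, and 5 of the 15 lay at the inner starts of Ddx50, Add3, Fbxl19, Ibtk and Gm33989 shown above. Another, at chr10:30618047-30618682, lay at an inner start of Hint3, a nucleotide hydrolase gene. Add3 had 44 tags at day 15, 31 tags at day 30 and 34 tags in naive cells, and Ddx50 had 41 tags at day 15, 23 tags at day 30 and 30 tags in naive cells. Gm33989 had 43 tags at day 15, 21 tags at day 30 and 46 tags in naive cells. Fbxl19 had 33 tags at day 15, 24 tags at day 30 and 36 tags in naive cells, Ibtk 29, 22 and 36 tags, and Hint3 37, 24 and 36 tags, in the same order. Each of these regions at inner starts had more tags than the median region in every list. This largely follows from their choice by −log10 p, which rises with pileup. Of the other 9, the region at chr3:5860287-5860868 had no gene within 100 kb, and its tags were 60 at day 15, 64 at day 30 and 35 in naive cells. It ranked 6 in the day 15 list and 2 in the day 30 list. The region inside Zc3h7a, a zinc finger gene, at chr16:11143867-11144375 had 56 tags at day 15, 56 tags at day 30 and 29 tags in naive cells. That inside Aida, at chr1:183299099-183299597, had 58 tags at day 15, 46 tags at day 30 and 26 tags in naive cells. These 3 had more tags with tumour than without, and their ratios to naive of excess per depth were 0.71, 0.80 and 0.93 at day 15 and 0.87, 0.92 and 0.84 at day 30. In the naive list they ranked 652.5, 994 and 2641. Repeated sequence and the mapping of reads at these 3 were not checked. The remaining 6, inside Chl1, Cpne8, Adgb and 5031425E22Rik, 10338 bp from Yae1d1 and 71007 bp from Trib1, had 31 to 46 tags at day 15, 15 to 31 tags at day 30 and 30 to 41 tags in naive cells.

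High tags around a peak set 187 regions apart, where the naive local background was over 3 times the genome-wide one. A strong peak adds to its own local background, so this group also holds strong single peaks. It held the highest pileups of all, 170 tags at day 15, 95 tags at day 30 and 122 tags in naive cells, at chr2:98666475-98667385. That region lay 1034803 bp from the nearest protein-coding gene. With 2 neighbours, at chr2:98662299-98662833 and chr2:98664997-98665235, it formed the largest of 16 groups of regions within 10 kb of each other, which held 33 regions together. Repeated sequence and the mapping of reads in this chr2 group were not checked, so its tags may not measure open chromatin. Inside Pex2, a peroxisome gene, a region had 63 tags at day 15, 37 tags at day 30 and 92 tags in naive cells, and inside Pcmtd1 another had 63, 38 and 61 tags. Further leading regions with high local background lay at inner starts of Nbeal1, Rfx1, Cetn3, Hdac4, Esyt2 and Nr3c2, with 44 to 50 tags at day 15, 27 to 34 tags at day 30 and 48 to 61 tags in naive cells. Rfx1 encodes a factor of the same family as Rfx5, Hdac4 a histone deacetylase and Nr3c2 the mineralocorticoid receptor.

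Few genes of each macrophage list had a shared distal region, though every such list had a higher share than all protein-coding genes, of which 2.3% had one. A shared distal region was nearest to 4 of 32 alveolar macrophage identity genes, 2 of 32 general macrophage genes, 1 of 18 MHC class II genes, 4 of 28 genes of activator protein 1 and the immediate early response, and 3 of 34 inflammatory genes. It was nearest to 2 of 25 interferon genes, 1 of 28 genes of TGF-beta and matrix, 3 of 28 lipid genes, 2 of 20 immune regulation genes and 2 of 26 housekeeping genes. Of 30 marker genes of other lung and immune cells, 0 had one. The share of housekeeping genes, 7.69%, was also above the 2.3% of all genes. Distal regions of day 15 and naive only were nearest to 14 of 32 alveolar macrophage genes, and those of naive alone also to 14. Over all protein-coding genes the shares of these sets were 8.37% and 9.10%. The higher shares were thus particular neither to shared distal regions nor to macrophage genes. At their own ends, the alveolar macrophage genes had peaks at 11 of 32 at day 15, 2 of 32 at day 30 (Bhlhe40 and Perp) and 15 of 32 in naive cells. Other lists also had fewest at day 30, with 16, 2 and 17 of 32 general macrophage genes, 20, 9 and 20 of 26 housekeeping genes and 17, 12 and 21 of 28 genes of activator protein 1, at day 15, at day 30 and in naive cells. Over all protein-coding genes the shares were the 29.6%, 12.8% and 34.7% given above. The other-cell markers had a peak at S100a8, a neutrophil gene, in every list and at no other gene. These are small counts, and no list was tested.

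Alveolar macrophage identity was represented by Pparg, Chil3, Cebpb and Axl. Here and below a region is given under its nearest protein-coding gene, and whether it acts on that gene was not tested. Pparg encodes a nuclear receptor without which alveolar macrophages do not mature. Its region, at chr6:115511484-115511972, lay inside the gene model Gm36301, 21080 bp from Pparg. The region had 15 tags at day 15, 14 tags at day 30 and 23 tags in naive cells. Its excess per depth at day 15 was 0.25 of naive, below the lower quartile of all shared distal regions, and at day 30 it was 0.27 of naive, within the quartiles. Chil3, which encodes the secreted chitinase-like protein Ym1, lay 3092 bp from a region at chr3:106170656-106171010 with 26 tags at day 15, 16 tags at day 30 and 13 tags in naive cells. This region was higher, with 0.83 of naive at day 15 and 0.56 at day 30, both above the upper quartile. These ratios rest on a weak naive peak, whose 13 tags were below the lower quartile of 19 tags. Cebpb, a transcription factor that alveolar macrophages need, had 30 tags at day 15, 19 tags at day 30 and 31 tags in naive cells. Its region, at chr2:167723753-167724205, lay 33321 bp from it. Axl, a receptor for the uptake of dying cells, had 20 tags at day 15, 13 tags at day 30 and 23 tags in naive cells. The day 15 ratio of the Cebpb region, 0.39, was near the median of 0.42, and that of the Axl region, 0.34, was just under the lower quartile.

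Among general macrophage genes, Dusp1, a phosphatase that turns off MAP kinases, had 2 regions. The stronger in naive cells had 19 tags at day 15, 11 tags at day 30 and 16 tags in naive cells, and the other 20, 13 and 12 tags. Zeb2, a repressor that keeps tissue macrophages in their state, had a region with 23 tags at day 15, 14 tags at day 30 and 20 tags in naive cells.

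The regions near genes of activator protein 1 and the immediate early response were mostly stronger than these. Fos, a subunit of activator protein 1, had a region 18239 bp away with 31 tags at day 15, 19 tags at day 30 and 30 tags in naive cells. Fosb, a related subunit, had 29 tags at day 15, 17 tags at day 30 and 39 tags in naive cells. Batf, a family member that lacks an activation domain, had 31 tags at day 15, 15 tags at day 30 and 31 tags in naive cells inside the gene, and 15, 15 and 16 tags just outside it. Nr4a3, an orphan nuclear receptor, had 27 tags at day 15, 19 tags at day 30 and 46 tags in naive cells at chr4:48042738-48043645. Its ratios of 0.23 at day 15 and 0.18 at day 30 were below the lower quartiles.

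Cytokine and interferon genes had mostly weak regions. Nfkbiz, which encodes the NF-kB cofactor IkB-zeta, was the exception, with 44 tags at day 15, 23 tags at day 30 and 38 tags in naive cells at chr16:55821964-55822653. Il1a, the cytokine interleukin 1 alpha, had 19 tags at day 15, 17 tags at day 30 and 17 tags in naive cells, and Cxcr4, a chemokine receptor, 18, 16 and 17 tags. Irf1, an interferon-induced activator, had 16 tags at day 15, 13 tags at day 30 and 11 tags in naive cells, and Irf2, its relative, 21, 14 and 16 tags. The regions of Il1a, Cxcr4 and Irf1 lay 9717, 22510 and 16465 bp from these genes. Tgfb1, the ligand TGF-beta 1, had 24 tags at day 15, 13 tags at day 30 and 28 tags in naive cells, and Rfx5 had 26 tags at day 15, 13 tags at day 30 and 32 tags in naive cells. For Tgfb1 and Rfx5, the day 30 ratios of 0.20 and 0.17 were below the lower quartile of 0.235.

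Of the lipid genes, Lpcat1, an acyltransferase of phosphatidylcholine, had the strongest region, with 34 tags at day 15, 24 tags at day 30 and 33 tags in naive cells. Lipa, the lysosomal acid lipase, had 18 tags at day 15, 17 tags at day 30 and 16 tags in naive cells, and Plin2, a coat protein of lipid droplets, 21, 15 and 15 tags. The Plin2 region lay 19947 bp from the gene. Pdcd1lg2 encodes PD-L2, a ligand of the T cell receptor PD-1. It had 1 region inside the gene with 34 tags at day 15, 20 tags at day 30 and 29 tags in naive cells, and another 13609 bp beyond it with 30, 18 and 28 tags. Cd47, the signal that protects cells from being eaten, had 34 tags at day 15, 19 tags at day 30 and 40 tags in naive cells. The Cd47 region lay 10703 bp from the gene. Among the housekeeping genes, the 2 regions of Ywhaz, a 14-3-3 gene, had 38 and 41 tags at day 15, 20 and 18 tags at day 30, and 39 and 34 tags in naive cells.

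**Figure D5:**
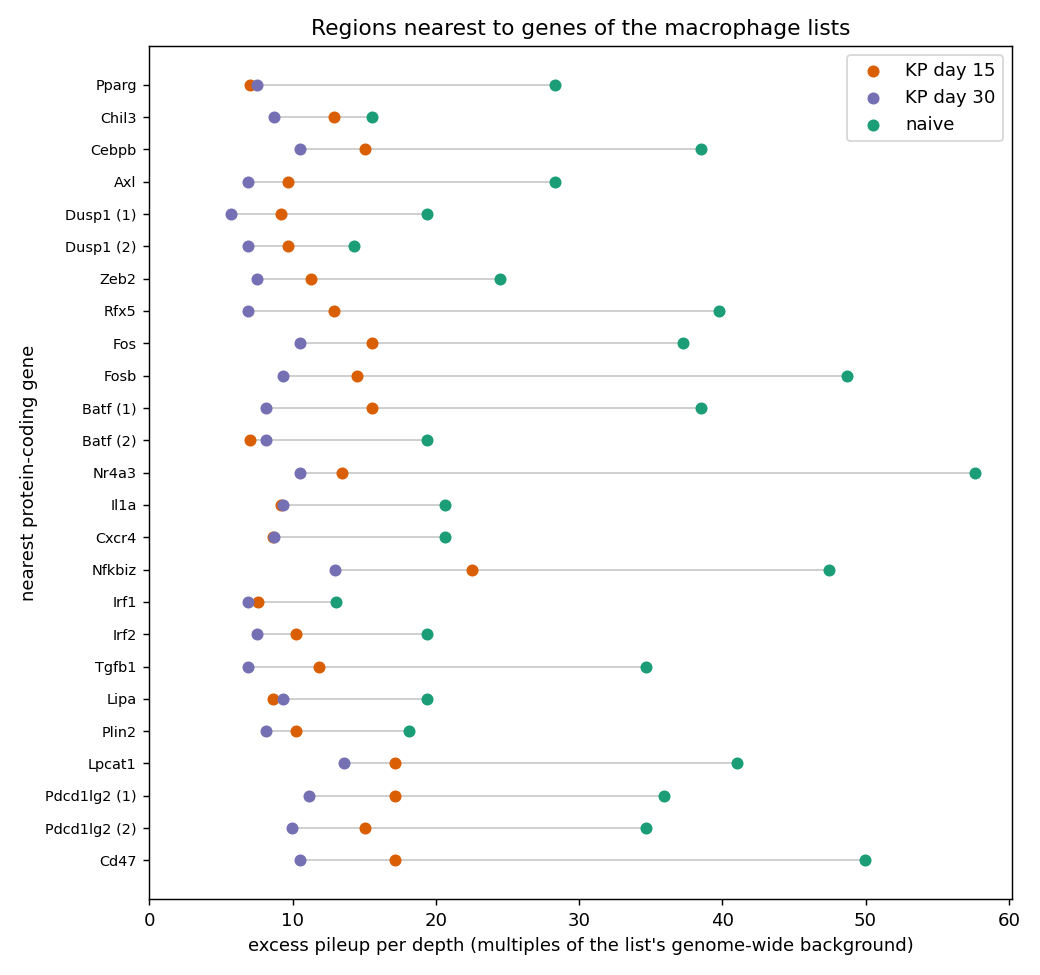
Excess pileup per depth, in multiples of the genome-wide background of the list (x axis), for the regions nearest to genes of the macrophage lists (y axis, a number in brackets where a gene has several), at KP day 15, KP day 30 and naive. Every region is highest in naive, from about 13 at Irf1 to 57.6 at Nr4a3. Day 15 comes nearest to naive at Chil3, where the naive peak had 13 tags.

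The highest ratios to naive were set by the following regions, named by that rule. The region between genes at chr15:75086612-75087049, 21112 bp from Ly6c2, had 58 tags at day 15, 52 tags at day 30 and 19 tags in naive cells, with ratios of 1.29 and 1.32. Filip1l and Cmss1, which overlap, held a region at chr16:57391263-57391748 with 63 tags at day 15, 62 tags at day 30 and 24 tags in naive cells, and ratios of 1.10 and 1.24. Camk1d, a calcium-dependent kinase gene, held one with 38 tags at day 15, 31 tags at day 30 and 14 tags in naive cells, and ratios of 1.15 and 1.06. These were the 3 regions above naive at both times. Repeated sequence and the mapping of reads at them were not checked. Trub2, with 18 tags at day 15, 12 tags at day 30 and 6 tags in naive cells, had the highest ratio at day 15, 1.30, on the lowest naive pileup of the 685. Abr, at 1.01, completed the first 5 at day 15. Cdk8, a kinase of the Mediator complex, had 25 tags at day 15, 34 tags at day 30 and 14 tags in naive cells, with ratios of 0.73 and 1.17. A region 64862 bp from Map3k8, a kinase gene of inflammatory signalling, had 13 tags at day 15, 18 tags at day 30 and 8 tags in naive cells, with ratios of 0.65 and 1.08.

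The lowest ratios followed. A region 40751 bp from Oprm1, the mu opioid receptor gene, had 17 tags at day 15, 15 tags at day 30 and 38 tags in naive cells, with ratios of 0.17 at both times. Ets1, an ETS factor gene, had 19 tags at day 15, 17 tags at day 30 and 37 tags in naive cells, with ratios of 0.20. Adh5, an alcohol dehydrogenase gene, had 22 tags at day 15, 13 tags at day 30 and 40 tags in naive cells at an inner start, and was among the lowest 5 at both times. Cyria, with 14 tags at day 15, 11 tags at day 30 and 25 tags in naive cells, and Ncoa7, with 13, 16 and 23 tags, completed the lowest 5 at day 15. The naive tags of these 2 did not exceed the median of 25, while those of the other 3 did. The lowest ratio at day 30 was 0.12, at 10607 bp from the nearest gene end and 110045 bp from Ogfrl1, where the tags were 29 at day 15, 13 at day 30 and 45 in naive cells. The other 3 lay inside Uggt2, 30488 bp from Intu and 37121 bp from Utp18. They had 13 to 16 tags at day 30 against 41 to 55 tags in naive cells. At day 30 no peak could hold fewer than 9 tags, which sets a floor under this ratio.

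MicroRNA genes lay within 5 kb of 5 regions. The region at chr14:115040725-115041236 lay 2435 bp upstream of Mir17, the first gene of the Mir17 to Mir92-1 cluster, which promotes growth in several tumours. It had 17 tags at day 15, 14 tags at day 30 and 23 tags in naive cells. The region at chr11:86586703-86587331 lay inside Vmp1, 2545 bp upstream of Mir21a, a microRNA often raised in tumours and in activated macrophages. It had 28 tags at day 15, 13 tags at day 30 and 21 tags in naive cells. The others lay near Mir7681, Mir6962 and Mir339, with 11 to 23 tags at day 30.

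Near the limit of 1000 bp, the 5 regions closest inside it lay 1004 bp from an end of Aldh3b1, 1006 bp from Gm52681, 1007 bp from Gm31754 and 1014 bp from Ss18 and from B430010I23Rik. They had 16 to 28 tags at day 15, 11 to 17 tags at day 30 and 13 to 30 tags in naive cells. The 5 closest outside it lay 981 to 994 bp from Aktip, Ctsz, Cep70, Cflar and Zfp688, with 16 to 53 tags at day 15, 13 to 25 tags at day 30 and 13 to 50 tags in naive cells. The highest values were thus those outside the limit, and the ranges overlapped in every list.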

How the data were processed

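Accessible chromatin of 11 samples was given as 3 peak lists, 1 for each group. Per the submitters' processing notes the tools were Bowtie2 2.3.4.1 and MACS2 2.1.1, and the build mm10. Their settings, any shift of reads for the transposase and any pooling of samples before calling are not given in the sources used here. GEO's design text names triplicates, while the labels number 4, 3 and 4 samples at day 15, at day 30 and in the naive group. The columns have no header and were identified by their values: the deposited score is 10 times the −log10 of the q-value in whole numbers (in 99.9% of naive peaks and all others), the authors' fold is a ratio of pileup to local background at the summit, and the authors' −log10 p-value and −log10 q-value belong to the peak. The deposited lists also give other columns, with the position of each summit.

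Whole-number pileups and local backgrounds were solved for from 2 relations: the fold is (pileup + 1)/(background + 1), and the p-value is the upper Poisson tail of the pileup. They gave every p within 0.001 on the −log10 scale. The lowest background shared by a list gave its depth, in tags of 200 bp per 10 kb as the peak caller counted them. Pileups and depths are those of the lists and not of single samples.

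Regions, distances and nearest genes came from the merged peaks and RefSeq genes of GRCm38.p6. Coordinates are 1-based. A region was at a start when it overlapped a RefSeq start window by at least 1 bp, and the window nearest to the naive summit was used. The members and the gene lists were chosen with earlier results of these data known. Named regions were the 15 with the lowest mean rank by −log10 p (those with a naive local background over 3 times the genome-wide one apart), the 5 on either side of the distance limit, the 5 highest and 5 lowest ratios to naive at each time, those nearest to listed genes, and genes nearest to 3 or more regions. One gene that this rule names is not reported here. Regions near microRNA genes, and genes with peaks at both starts, were chosen after their values were seen. The recovery was tested on simulated peaks. Python 3.11.15, pandas 2.3.3, numpy 2.4.6 and scipy 1.17.1 were used. Alternatives were a stricter q-value, a larger overlap, a wider distance, protein-coding ends only, the local background in place of the genome-wide one, and leaving out regions with high local background, with several peaks of a list, or at a start.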

Additional observations from a re-analysis of the deposited data

How the results depend on the processing

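No paired analysis was possible because each group has 1 list and its columns carry no replicate numbers. The number of regions, 685, became 397 with a −log10 q of at least 5 in every list, and was between 498 and 820 under the other alternatives. The share with a protein-coding gene end within 50 kb, 79.0%, became 75% beyond 2000 bp from gene ends, 75% without regions at a start and 89.8% with a window of 100 kb. The share inside genes, 72.0%, became 64.7% without regions at a start, an alternative chosen after seeing the data. Without regions of high local background the median ratios to naive were 0.424 at day 15 and 0.316 at day 30, and with the stricter q-value the ratio of day 30 to day 15 was 0.756. No ratio changed direction. The causes were not tested. With 1 list a group, spread between mice cannot be given. The day 30 list, with few tags at most summits, sets which regions could be included.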
